A study of Mus musculus with 22 samples.

Results

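Tumours of the same organ can differ in how many of their cells are dividing. Here 10 hepatocellular carcinomas of Mdr2-knockout mice were ordered by the RNA level of genes that dividing cells switch on, and the 4 tumours with the highest score were compared with the 4 with the lowest. Both groups were chosen by these measured values. The score was the mean log2 ratio of Rrm2, Aurkb, Mcm2, Top2a and Cdc20, averaged over a tumour's 2 dye-swapped arrays and over the spots of a gene. Ccnb1, the sixth gene intended for the score, and Pcna were not analysed here. The compared groups held 8 of the 11 RNA samples of the series, 2 tumours lay between them, and the remaining sample was a wild-type liver.

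Every tumour lacked both Mdr2 alleles; the gene, symbol Abcb4, encodes the transporter that moves phospholipid into bile, and mice without it develop hepatitis and then liver cancer. The high score group held Mdr2-KO 5, Mdr2-KO 7, IkB-SR 9 and IkB-SR 4. The low score group held IkB-SR 3, IkB-SR 6, the tumour labelled IkB-SR 8, and Mdr2-KO 2. IkB-SR mice were Mdr2-knockouts that also carried the IkB super-repressor, an inhibitor of NF-kB, from a tetracycline-regulated promoter, with the transactivator driven in hepatocytes by a C/EBP promoter (line TALAP1). All mice had a mixed genetic background, as did the wild-type liver. The labels state no ages and give the sex as unknown, and the design text speaks of individual mice. Each value is a log2 ratio over Stratagene's universal mouse reference RNA, a pool from cultured cells of several tissues, and sample over pool is the likely direction of the ratio, in which a negative value means less RNA than in the pool. The pool comes from growing cell lines, and most cell cycle genes named below had negative values.

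A cell that enters division passes from G1 into S phase, when E2F factors switch on the genes for nucleotide supply, replication origins and the replication fork. Mitotic genes follow in G2 and M phase, many of them through the MuvB complex with B-Myb and FoxM1, which recognises a short promoter element called the cell cycle genes homology region (CHR), often next to CCAAT boxes bound by NF-Y. Most hepatocytes of an adult liver rest outside the cycle, and RNA of mitotic genes is scarce in such tissue.

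The score was -2.82, -3.10, -3.12 and -3.24 in the high score tumours Mdr2-KO 5, Mdr2-KO 7, IkB-SR 9 and IkB-SR 4, and -3.64, -3.65, -3.73 and -3.98 in the low score tumours IkB-SR 3, the one labelled IkB-SR 8, IkB-SR 6 and Mdr2-KO 2. Values of single tumours below follow this order. Mdr2-KO 1 and IkB-SR 10 lay between at -3.35 and -3.36, only 0.11 under the last high score tumour and 0.28 over the first low score one. The group means were -3.07 ± 0.18 and -3.75 ± 0.16 (SD, n = 4 each) for high and low score tumours. The wild-type liver scored -4.51, below all 10 tumours and 0.53 under the lowest of them.

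The 5 score genes chose the groups, so their values are a description. Rrm2, the small subunit of ribonucleotide reductase, lay at -2.81, -2.85, -2.56 and -3.08 in the high score tumours, against -3.61, -3.72, -3.31 and -3.80 in the low score tumours. Cdc20, which activates the anaphase-promoting complex, lay at -2.25, -3.07, -3.42 and -2.96 in the high score tumours, against -3.58, -3.94, -3.95 and -4.30 in the low score tumours. Aurkb, the kinase of the chromosomal passenger complex, ranged from -3.74 to -3.37 in the high score group and from -4.41 to -3.97 in the low score group. For these 3 genes the groups did not overlap. Top2a, which untangles DNA before chromosomes part, also did not overlap, with -2.87 to -2.31 in high score and -3.48 to -3.04 in low score tumours. Mcm2, a subunit of the replicative helicase, lay at -2.89, -3.51, -3.23 and -3.68 in the high score tumours, against -4.02, -3.21, -4.01 and -3.91 in the low score tumours, and the tumour labelled IkB-SR 8 lay among the high score tumours. In the wild-type liver Rrm2, Cdc20, Aurkb and Mcm2 lay at -4.76, -4.71, -4.98 and -4.74, below every tumour, while Top2a lay at -3.36, inside the range of the tumours.

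**Figure D1:**
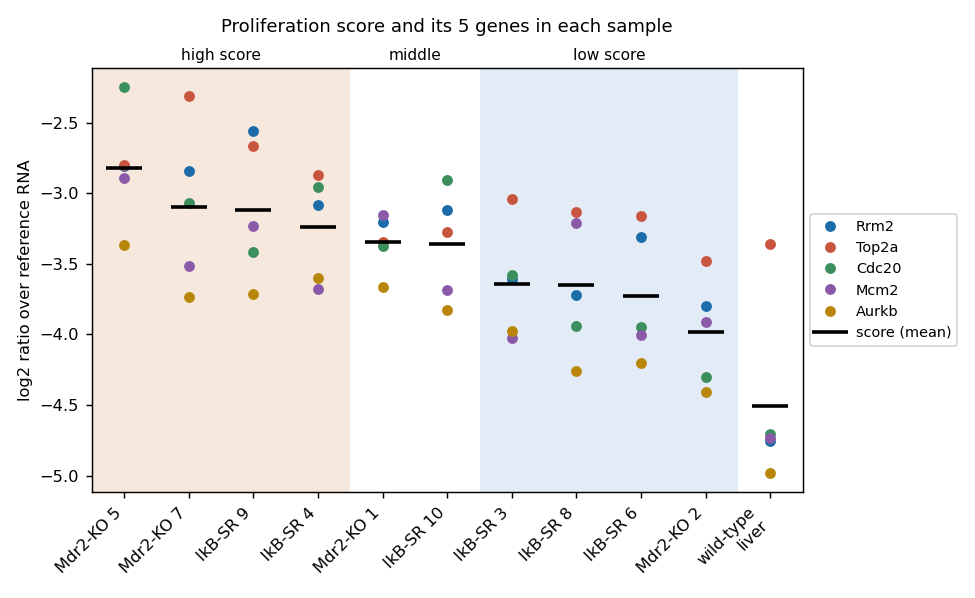
Log2 ratio over the reference RNA (y axis) of the 5 score genes (coloured points) and their mean (black bars) in each sample, from the highest to the lowest score and then the wild-type liver. The shaded blocks are the 4 high and the 4 low score tumours, with the 2 middle tumours between them; the wild-type liver has the lowest mean, -4.51.

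The score depended on the dye. Samples fell into 2 sets by how much the values of their dye-swapped arrays differed from spot to spot (called dye batches here; the labels name no batch). Mdr2-KO 5 and 7 of the high score group and IkB-SR 6 and the tumour labelled IkB-SR 8 of the low score group belonged to the set with the larger difference, dye batch 2, as did the wild-type liver. In the 4 tumours of dye batch 2 the score was 0.43 to 0.91 higher on the Cy3 than on the Cy5 array, and in the 6 tumours of dye batch 1 it was -0.26 to -0.15, that is lower on Cy3. Each score group held 2 tumours of each set, so the sets were balanced between the groups. Genotype was not balanced within either batch. In batch 1 the high score tumours were IkB-SR 9 and 4, and the low score tumours IkB-SR 3 and Mdr2-KO 2, so values for it mix score and genotype in part. In batch 2 both high score tumours were Mdr2-KO and both low score tumours were labelled IkB-SR. Of these 4 tumours, only the low score ones had the Y chromosome gene Eif2s3y above 0. In every value given below for batch 2, score, genotype label and Eif2s3y therefore cannot be told apart. Scored on Cy3 arrays alone, the high group would be Mdr2-KO 5 and 7 and IkB-SR 9 and 6, and the low group Mdr2-KO 1 and 2 and IkB-SR 3 and 10. Scored on Cy5 arrays alone, the high group would be Mdr2-KO 1 and 5 and IkB-SR 4 and 9, and the low group Mdr2-KO 2 and 7, IkB-SR 6 and the tumour labelled IkB-SR 8. Mdr2-KO 7 and IkB-SR 6 were thus high on Cy3 and low on Cy5, and Mdr2-KO 1 low on Cy3 and high on Cy5. A score over 128 other genes of replication and mitosis, averaged over both dyes, gave the same 4 high and the same 4 low tumours. In it the middle tumour IkB-SR 10 lay at -2.33 and the low score tumour IkB-SR 3 at -2.35, close to a tie. It comes from the same arrays and the same averaging over dyes, so it does not address the dependence on the dye.

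**Figure D2:**
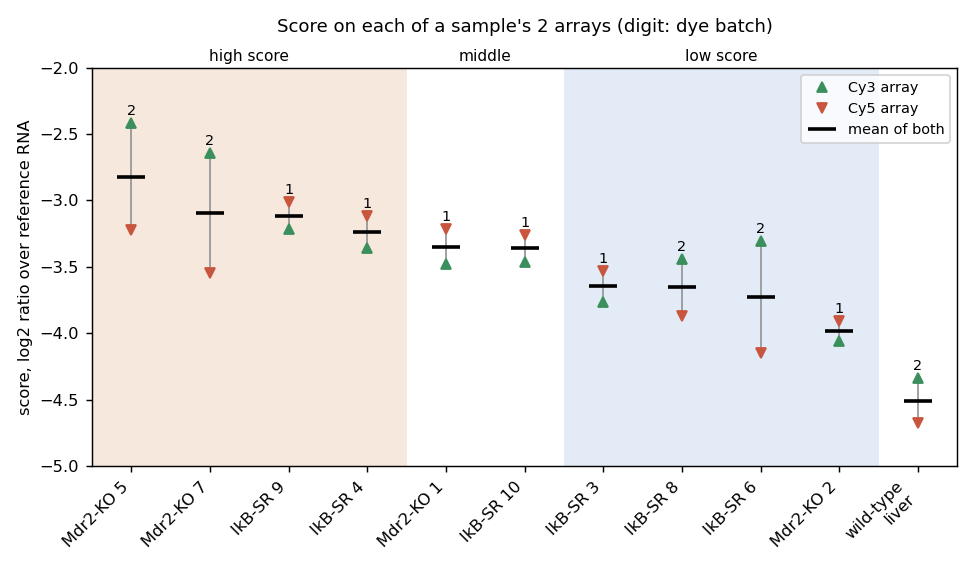
Score (mean log2 ratio of the 5 score genes, y axis) on the Cy3 array (green triangles), on the Cy5 array (red triangles) and as the mean of both (black bars) in each sample. The digit over a sample is its dye batch; in batch 2 Cy3 lies above Cy5 by 0.34 or more, in batch 1 below it.

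The scores of the genotypes overlapped. The mean was -3.46 ± 0.25 (SD, n = 6) in IkB-SR tumours and -3.31 ± 0.50 (SD, n = 4) in Mdr2-KO tumours, a difference of -0.15 (two-sided exact permutation test over 210 splits, p = 0.548). The highest and the lowest score of the series both belonged to Mdr2-KO tumours, numbers 5 and 2. The difference was 0.32 within dye batch 1 and -0.73 within dye batch 2 (exact permutation p = 0.333 in each, where the smallest possible p was 0.0667 and 0.333). Nfkbia, the parent gene of the super-repressor, lay at 0.05, 0.04, 3.11 and 2.28 in the high score tumours, against 2.30, 0.00, 1.69 and 0.12 in the low score tumours, and the tumour labelled IkB-SR 8 had 0.00, as low as the Mdr2-KO tumours, so it went against its label. Eif2s3y, a Y chromosome gene, was above 0 in IkB-SR 9 of the high score group, in IkB-SR 6 and the tumour labelled IkB-SR 8 of the low score group, and in the wild-type liver.

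Across 17308 features with enough values (11404 named genes and single unnamed spots), limma called 0 different between high and low score tumours at a Benjamini-Hochberg adjusted p under 0.05 (0.0% of features; lowest adjusted p = 0.737). At an unadjusted p under 0.05 it found 828 features, of which 648 (3.74% of those tested) were higher and 180 (1.04%) lower in high score tumours. After quantile normalization the split was 408 higher of 769, and after centring each array on its median 503 of 686. All genes were measured on the arrays that gave the score, so this fit measures association with the score, and genes of the cell cycle are no independent support for it. No direction below is a call, and the differences given are values. A plain way to describe a gene is whether all high score tumours lay above all low score tumours, which was so for 1.88% of all features, and below for 2.04%.

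When the score entered the fit as a continuous measure over all 10 tumours, limma called 10 features (0.0578% of those tested), all higher with a higher score. They were Ccnb2, Cdca2, Pbk, Nusap1, Smc4, Ckap2l, Bub1b, Sgo1 and Tpx2, all genes of mitosis, and 1 unnamed spot. Their levels changed by 0.75 (Sgo1, which protects the cohesion of sister chromatids) to 1.64 (Ccnb2, cyclin B2) on the log2 scale per unit of score (limma adjusted p = 0.0441 and 0.0274). The caution about genes measured on the arrays that gave the score holds here too.

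Among the 30 gene lists, that of the spindle, kinetochore and condensin had the largest median difference. Of 64 genes tested, 61 lay above 0, with a median log2 difference of 0.50, against -0.01 over all features tested, and in 29 of them all high score tumours exceeded all low score tumours (background 1.88%). Smc4, a core subunit of condensin, lay at -2.36, -2.66, -2.66 and -2.71 in the high score tumours, against -3.08, -3.29, -3.29 and -3.31 in the low score tumours, a difference of 0.65 ± 0.10 (SE). Cdca2, which targets protein phosphatase 1 to chromatin late in mitosis, lay at -2.25, -2.46, -2.31 and -2.50 in the high score tumours, against -2.91, -3.19, -3.17 and -3.61 in the low score tumours. In both genes the weakest high score tumour was above the strongest low score tumour. Tpx2, which activates Aurora A on the spindle, lay at -2.60, -3.06, -3.27 and -3.45 in the high score tumours, against -3.73, -4.04, -4.27 and -4.16 in the low score tumours, a difference of 0.95 ± 0.20 (SE), or 1.94-fold. Ect2, which is needed for cytokinesis, differed by 0.72 and its groups did not overlap, but its highest value of all, -0.64, was in the middle tumour Mdr2-KO 1. Cenpa, the histone H3 of centromeres, differed by 0.75, Nusap1, a spindle microtubule binder, by 0.64 and Ckap2l, a spindle protein, by 0.86.

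Of the mitotic kinases and entry genes 23 of 27 lay above 0, with a median of 0.31 and 11 with groups that did not overlap (background 1.88%). Pbk, a kinase active in mitosis, lay at -2.84, -3.37, -3.29 and -3.43 in the high score tumours, against -4.19, -4.12, -4.08 and -4.19 in the low score tumours, a difference of 0.92 ± 0.13 (SE). Bub1b, the checkpoint protein BubR1, lay at -3.06, -3.37, -3.39 and -3.46 in the high score tumours, against -3.71, -4.36, -4.28 and -4.49 in the low score tumours, and its partner Bub1 at -3.58, -3.45, -3.41 and -3.36 in the high score tumours, against -3.76, -4.07, -4.36 and -4.30 in the low score tumours. In both checkpoint genes IkB-SR 3 was the highest of the low score tumours. Ccnb2 differed by 1.00, Cdk1, the kinase that cyclin B drives, by 0.92, Ube2c, the ubiquitin carrier of the anaphase-promoting complex, by 0.93 and Plk1, a kinase of mitotic entry, by 0.82. Cdk1 lay at -2.57, -3.54, -4.02 and -3.94 in the high score tumours, against -4.18, -4.47, -4.36 and -4.72 in the low score tumours, with Mdr2-KO 5 far above the others; without it the difference was 0.60, against 0.92 with it. Mki67, the antigen used to count cycling cells, lay at -2.70, -3.64, -4.05 and -3.91 in the high score tumours, against -4.00, -4.50, -4.34 and -4.58 in the low score tumours, and here the groups overlapped, since IkB-SR 9 was below IkB-SR 3. Its difference was 0.78, and 0.49 without Mdr2-KO 5. The median of the mitotic kinases and entry genes was 0.53 without IkB-SR 4. Trip13, an ATPase that disassembles checkpoint complexes, was in none of the lists and lay at -2.31, -2.35, -2.33 and -2.58 in the high score tumours, against -3.24, -3.36, -2.85 and -3.19 in the low score tumours.

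The G1 to S group of cyclins, kinases and E2F factors had 24 of 26 genes above 0, a median of 0.31 and 7 whose groups did not overlap (background 1.88%). Ccnd1, cyclin D1, which carries growth signals to the kinases Cdk4 and Cdk6, lay at 0.49, 0.33, -0.36 and -0.09 in the high score tumours, against -0.75, -1.56, -1.72 and -0.45 in the low score tumours, and at -2.33 in the wild-type liver. Its difference of 1.21 ± 0.33 (SE), or 2.31-fold, was the largest of any gene in the cell cycle lists. E2f1, an activator of S-phase genes, lay at -1.67, -1.38, -1.72 and -1.82 in the high score tumours, against -2.19, -2.27, -2.35 and -2.22 in the low score tumours. Of all cell cycle list genes tested, only Ccnd1 and E2f1 had groups that did not overlap on the Cy3 arrays alone and again on the Cy5 arrays alone. E2f8, a repressor that closes the E2F wave, lay at -1.63, -1.37, -1.09 and -1.57 in the high score tumours, against -2.14, -1.93, -2.18 and -2.59 in the low score tumours. Ccna2, cyclin A2, and Ccne1, cyclin E1, differed by 0.81 and 0.48.

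Lists of S phase had smaller medians. Of 45 genes of replication licensing and the fork, 35 lay above 0, with a median of 0.20 (0.13 without Mdr2-KO 2), and 8 did not overlap (background 1.88%). Asf1b, a chaperone that hands histones to new DNA, lay at -3.11, -3.53, -3.52 and -3.67 in the high score tumours, against -3.98, -3.96, -4.21 and -3.94 in the low score tumours. Mcm4, like Mcm2 part of the helicase, lay at -2.84, -3.02, -3.02 and -3.54 in the high score tumours, against -3.98, -3.69, -3.89 and -3.61 in the low score tumours, a difference of 0.69 ± 0.16 (SE). Mcm5, another helicase subunit, differed by 0.72 and Wdhd1, which ties the helicase to DNA polymerase alpha, by 0.73. Among 13 genes of S-phase chromatin 12 lay above 0 with a median of 0.14. Among 13 of nucleotide supply 8 lay above 0 with a median of 0.06. In both lists 0 genes had groups that did not overlap, but at the share of all features (1.88%) few or none would in lists this short. Tk1, thymidine kinase, lay at -1.64, -1.52, -2.27 and -1.79 in the high score tumours, against -2.22, -2.22, -2.77 and -2.22 in the low score tumours, so IkB-SR 9 was below IkB-SR 3 and the wild-type liver, at -0.85, was above every high score tumour. Tyms, thymidylate synthase, differed by 0.35, and Uhrf1, which brings DNA methylation to replicated DNA, by 0.28, though its 2 spots gave 0.51 and 0.06. DNA repair and checkpoint genes had 20 of 28 above 0, a median of 0.06 and 0 that did not overlap (background 1.88%). Rad54l, a motor of recombination repair, differed by 0.53.

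**Figure D3:**
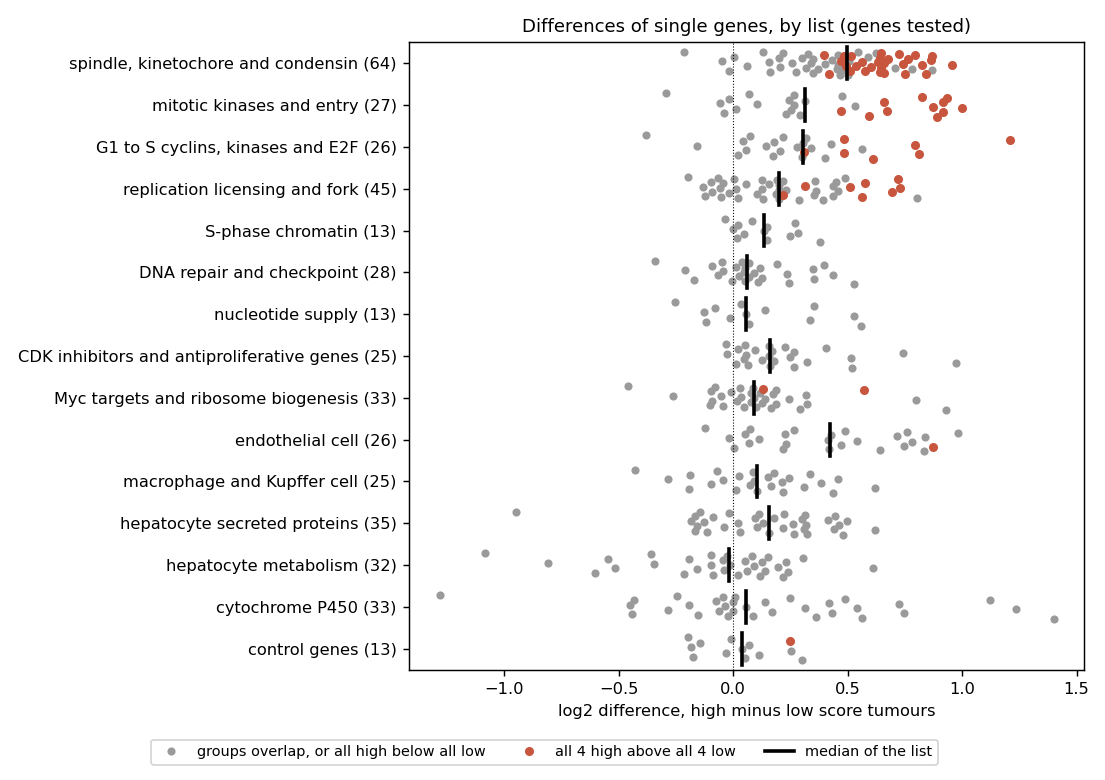
Log2 difference between high and low score tumours (x axis) of single genes in 15 lists, with the genes tested in parentheses; score genes are left out. Red points are genes in which all 4 high score tumours exceeded all 4 low score tumours (3 or 4 per group where a value was missing), and black bars are list medians, 0.50 for the spindle list and 0.06 for nucleotide supply.

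Over the union of these 7 cell cycle lists, 183 of 216 genes lay above 0 (48.6% of all features did), 76 had an unadjusted p under 0.05 in the higher direction and 0 in the lower (background 3.74% and 1.04%), and 55 did not overlap (background 1.88%). Of the 11404 named genes alone, 6100 lay above 0, and 486 had such a p in the higher and 125 in the lower direction. The 55 were part of 251 named genes on the array with that separation, and 22 of the 50 named genes with the smallest p were in these lists. Their differences ran from 0.22 to 1.21 with a median of 0.66. Mdr2-KO 5 was the highest of the 10 tumours in 26 of them and Mdr2-KO 2 the lowest in 30. The separation rested on the mean of both dyes: on Cy3 arrays alone 13 of 53 of these genes kept it (0.721% of all named genes had it there), and on Cy5 arrays alone 14 of 54 (1.06%).

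The median of the cell cycle genes was also above 0 in smaller sets of the same tumours, all sorted by the score. Their median difference was 0.45 within Mdr2-KO tumours (5 and 7 against 2) and 0.22 within IkB-SR tumours (9 and 4 against 3, 6 and the one labelled 8), with 85.0% and 75.7% of genes above 0, against 52.8% and 50.3% of all named genes. It was 0.27 within either dye batch, with 79.6% and 80.1% above 0 in batches 1 and 2, against 47.0% and 53.9% of all named genes. Batch 1 set IkB-SR 9 and 4 against IkB-SR 3 and Mdr2-KO 2. Batch 2 set Mdr2-KO 5 and 7 against IkB-SR 6 and the one labelled IkB-SR 8. On Cy3 arrays alone 78.7% and on Cy5 arrays alone 85.6% lay above 0, against 49.4% and 62.1% of all named genes. Without the tumour labelled IkB-SR 8 it was 0.30, with 87.0% above 0, against 55.2% of all named genes.

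**Figure D4:**
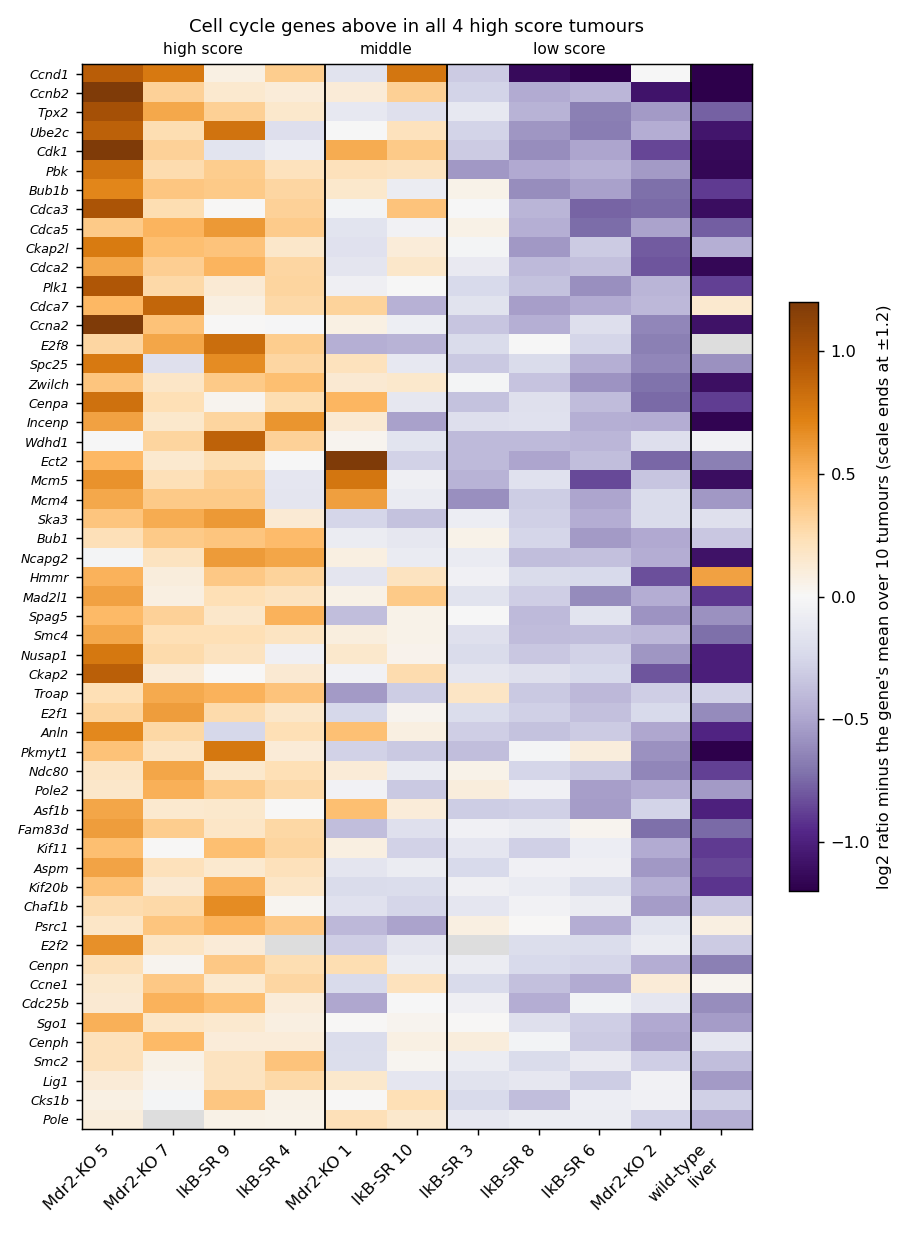
The 55 cell cycle genes in which the high score tumours exceeded the low score tumours (rows, by size of the difference) in each sample (columns); colour is the log2 ratio minus the gene's mean over the 10 tumours, orange above and purple below, grey for no value. The rows were chosen for this contrast, so the colour step between high and low score columns is fixed by that choice; the wild-type column, which played no part in it, is below all 4 low score tumours in 39 of 54 genes.

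The wild-type liver was not used by the score. Among cell cycle list genes it lay below all 4 low score tumours in 105 of 213 (49.3%) and above all 4 in 23 (10.8%), while among 11113 named genes with a wild-type value it was below in 2938 (26.4%) and above in 2441. Of the 55 genes that separated the tumour groups it was below in 39 of 54 (72.2%) and above in 3. It is a single sample and belongs to dye batch 2, so these shares have no replicate check.

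Promoters of 6 genes are printed as examples. Rrm2, Mcm2, Top2a and Cdc20 form most of the score, and Asf1b and Bub1b are single genes of replication and mitosis outside it. They are RefSeq promoters, from 250 bases before to 50 after the start, written 5′ to 3′ on the gene's strand in build GRCm38.p6. Capitals mark the CCAAT box (CCAAT) and the CHR (TTTGAA or TTCGAA) on either strand; no match overlaps another in these 6. Rrm2 is at chr12:24708004-24708303 (plus strand), Mcm2 at chr6:88898731-88899030 (minus strand), Asf1b at chr8:83955444-83955743 (plus strand), Top2a at chr11:99024140-99024439 (minus strand), Cdc20 at chr4:118437294-118437593 (minus strand) and Bub1b at chr2:118597961-118598260 (plus strand).
Rrm2: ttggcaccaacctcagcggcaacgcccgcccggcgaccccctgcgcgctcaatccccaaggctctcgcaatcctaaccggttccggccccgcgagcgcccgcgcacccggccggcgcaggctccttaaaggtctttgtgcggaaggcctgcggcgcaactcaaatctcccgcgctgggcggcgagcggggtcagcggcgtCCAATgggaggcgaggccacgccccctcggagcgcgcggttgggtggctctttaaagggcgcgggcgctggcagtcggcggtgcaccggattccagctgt
Mcm2: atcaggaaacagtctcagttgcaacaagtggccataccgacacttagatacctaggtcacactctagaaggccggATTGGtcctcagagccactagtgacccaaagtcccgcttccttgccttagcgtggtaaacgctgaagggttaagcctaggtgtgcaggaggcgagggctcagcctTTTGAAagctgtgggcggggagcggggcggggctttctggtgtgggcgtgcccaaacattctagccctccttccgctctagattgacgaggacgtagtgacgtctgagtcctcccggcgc
Top2a: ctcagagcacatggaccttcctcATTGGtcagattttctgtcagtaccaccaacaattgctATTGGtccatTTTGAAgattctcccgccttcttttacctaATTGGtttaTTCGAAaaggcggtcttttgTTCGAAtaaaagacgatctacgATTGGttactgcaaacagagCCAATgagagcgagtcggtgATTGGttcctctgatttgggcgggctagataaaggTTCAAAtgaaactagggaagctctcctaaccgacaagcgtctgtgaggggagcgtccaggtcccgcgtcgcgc
Cdc20: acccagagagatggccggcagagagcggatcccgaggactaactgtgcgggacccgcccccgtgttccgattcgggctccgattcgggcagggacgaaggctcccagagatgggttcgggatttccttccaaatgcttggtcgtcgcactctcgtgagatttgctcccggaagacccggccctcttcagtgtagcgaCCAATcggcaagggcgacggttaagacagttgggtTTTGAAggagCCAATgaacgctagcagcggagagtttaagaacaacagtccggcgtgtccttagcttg
Asf1b: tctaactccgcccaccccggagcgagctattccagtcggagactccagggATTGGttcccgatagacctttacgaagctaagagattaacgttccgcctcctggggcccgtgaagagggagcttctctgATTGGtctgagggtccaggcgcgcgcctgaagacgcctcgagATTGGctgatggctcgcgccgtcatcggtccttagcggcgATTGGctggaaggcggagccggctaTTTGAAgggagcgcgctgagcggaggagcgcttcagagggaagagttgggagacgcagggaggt
Bub1b: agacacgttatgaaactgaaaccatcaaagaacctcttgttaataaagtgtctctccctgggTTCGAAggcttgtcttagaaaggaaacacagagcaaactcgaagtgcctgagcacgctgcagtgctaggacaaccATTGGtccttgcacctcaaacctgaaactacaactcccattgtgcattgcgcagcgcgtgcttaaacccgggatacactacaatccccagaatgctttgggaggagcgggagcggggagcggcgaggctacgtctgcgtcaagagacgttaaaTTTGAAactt

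Top2a held 6 CCAAT boxes and 4 CHR matches, Asf1b 4 and 1, Cdc20 2 and 1, Mcm2 1 and 1 and Bub1b 1 and 2, whereas Rrm2 held 1 CCAAT box and 0 CHR matches. Among all 27025 genes with a RefSeq promoter, 19.4% of promoters held a CHR match and 37.9% a CCAAT box. Among tested spindle, kinetochore and condensin genes 39 of 56 promoters (69.6%) held a CHR match, and among mitotic kinases and entry genes 13 of 23 (56.5%). Replication genes were near the level of all genes for the CHR (18.9%), but 37.8% of them held an E2F site (TTTCCCGC, TTTGGCGC, TTTCGCGC or TTTGCCGC on either strand), as did 38.9% of the G1 to S genes, against 2.32% of all promoters. None of the 6 printed promoters held such an E2F site. Mcm2 and Asf1b each held a CHR match, which most replication genes lacked. Of the cell cycle genes whose groups did not overlap, 31 of 44 promoters (70.5%) held a CHR match, and of those whose groups overlapped, 39 of 137 (28.5%). Most genes without overlap came from the spindle (29) and mitotic kinases and entry (11) lists, where CHR matches were common in any case. These shares were not compared within a list, and the genes without overlap were picked by this same contrast. These matches describe letters in a window and not binding.

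Genes that restrain division also lay mostly above 0. Of 25 CDK inhibitors and antiproliferative genes 23 lay above 0, with a median of 0.16, against 48.6% of all features and 6100 of 11404 named genes. It was 16 of 25 (median 0.09) within IkB-SR tumours and 17 of 25 (0.11) without IkB-SR 3. In the list 0 genes had groups that did not overlap (background 1.88% above and 2.04% below). Gas1, a membrane protein that rises when fibroblasts stop growing, lay at -3.37, -2.27, -2.64 and -3.09 in the high score tumours, against -4.00, -3.53, -3.56 and -3.27 in the low score tumours. Klf6, a zinc finger factor, differed by 0.51. Cdkn1a, the inhibitor p21, lay at -0.11, -0.99, 0.06 and -1.76 in the high score tumours, against -1.77, -0.22, -0.34 and -0.98 in the low score tumours, mixed between the groups. Of 22 p53 targets 17 lay above 0 with a median of 0.18, but the median was -0.04 (10 of 22) within IkB-SR tumours, 0.03 without IkB-SR 3 and 0.05 without Mdr2-KO 5. Psrc1, a spindle protein that p53 also regulates, lay at -2.44, -2.21, -2.12 and -2.23 in the high score tumours, against -2.52, -2.61, -3.07 and -2.76 in the low score tumours, and Aen, a nuclease that p53 induces in apoptosis, differed by 0.66. Myc, a driver of growth, lay at -2.22, -1.58, -2.41 and -2.79 in the high score tumours, against -2.62, -2.91, -3.49 and -2.21 in the low score tumours, a difference of 0.56 that was 0.34 without Mdr2-KO 7 and also without IkB-SR 6. Of 33 Myc targets and ribosome biogenesis genes 24 lay above 0 with a median of 0.09, which was -0.01 within dye batch 1 and 0.19 within dye batch 2. Gar1, a core protein of the particles that modify ribosomal RNA, lay at -1.75, -1.76, -1.44 and -1.76 in the high score tumours, against -2.23, -2.26, -2.50 and -2.02 in the low score tumours, with no overlap, and Ppan, a ribosome assembly factor, differed by 0.80.

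Hepatocyte lists had medians from -0.02 to 0.16. Of 35 secreted proteins 24 lay above 0 (median 0.16) and of 32 metabolic genes 15 (median -0.02). Of 15 hepatocyte transcription factors 6 lay above 0 (median -0.01) and of 33 cytochrome P450 genes 18 (median 0.06). In none of these 4 lists did any gene have groups that did not overlap (background 1.88% above and 2.04% below). The secreted protein list went opposite ways in the dye batches, with a median of 0.48 (28 of 35 above 0) in batch 1 and -0.25 (4 of 35) in batch 2, and it was -0.01 without IkB-SR 9. The P450 list had a median of 0.42 (26 of 32) within IkB-SR and -0.29 (6 of 32) within Mdr2-KO tumours. Alb, albumin, lay at 5.86, 5.78, 7.45 and 7.33 in the high score tumours, against 7.29, 6.12, 6.42 and 5.54 in the low score tumours. The mean over the secreted proteins was 4.52, 4.36, 5.23 and 5.18 in the high score and 5.01, 4.57, 4.77 and 4.42 in the low score tumours, against 4.65 in the wild-type liver, so hepatocyte RNA was abundant in all of them. Igf2, a fetal growth factor, lay at -2.53, 0.16, -0.58 and 4.64 in the high score tumours, against -1.85, -1.03, -2.83 and 4.58 in the low score tumours, and H19, the RNA expressed beside it, at -1.88, 0.96, 0.84 and 2.59 in the high score tumours, against -2.21, 2.88, -3.74 and 3.80 in the low score tumours; the high Igf2 values were those of IkB-SR 4 in the high score and Mdr2-KO 2 in the low score group. Afp, alpha-fetoprotein, had values in only 2 high score tumours, 2.16 and 1.76, and in the low score tumours lay at 1.83, 1.74, 2.07 and 1.65. Abcb4 itself lay at 3.30, 2.26, 2.92 and 2.26 in the high score tumours, against 3.13, 3.54, 2.35 and 2.78 in the low score tumours; whether its probes lie inside the knocked-out part is not stated.

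Among genes of at least 1 log2 unit and an unadjusted limma p under 0.05, the rule for named genes gave 14 with a positive and 13 with a negative difference. Without the condition on p, and with unnamed spots included, 40 and 39 of all features reached that size (0.231% and 0.225%). Tor4a, a torsin family ATPase, lay at -0.39, -0.51, -0.09 and -0.55 in the high score tumours, against -1.83, -2.27, -2.17 and -1.23 in the low score tumours, a difference of 1.49 ± 0.23 (SE), or 2.81-fold. The groups did not overlap, and the wild-type liver, at -1.97, was inside the range of the low score tumours. Rab3b, a GTPase of secretory vesicles, lay at 0.28, 0.42, -1.71 and -0.72 in the high score tumours, against -1.68, -2.14, -2.13 and -2.31 in the low score tumours, with both Mdr2-KO tumours of the high score group far above the IkB-SR tumours. Its highest value, 0.47, was in the middle tumour Mdr2-KO 1, so the large values did not follow the score. Raet1e, a ligand of the receptor NKG2D, lay at 2.89, 0.03, 0.35 and 1.17 in the high score tumours, against -1.27, -1.48, -0.39 and -0.01 in the low score tumours, and its 2 spots differed by 2.34 and 0.71. The spot with 0.71 had values in only 2 tumours of each group, so the tumour values mix means over 1 and 2 spots. Setd4, a methyltransferase, differed by 1.42 and Sik1, a salt-inducible kinase, by 1.08. H2bc22, a histone H2B gene, differed by 1.02 as a mean over its 4 spots, but each spot with values in both groups differed by only 0.17 to 0.39, because not every spot had a value in every tumour. Ahcy, which clears S-adenosylhomocysteine, differed by less than 1 log2 unit but did not overlap, at 2.31, 2.81, 2.39 and 2.19 in the high score tumours, against 1.53, 1.44, 1.84 and 1.75 in the low score tumours; it was named after its values were seen.

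Gtpbp2, Tjap1 and Mad2l1bp, which lie beside Vegfa on chromosome 17, had log2 differences of 1.43, 1.26 and 1.14, and Vegfa, the endothelial growth factor, of 1.15. Gtpbp2 lay at 1.24, 0.97, -0.52 and -0.46 in the high score tumours, against -0.96, -1.32, -1.19 and -1.01 in the low score tumours, and at 0.60 in the middle tumour Mdr2-KO 1, so the large values sat in 3 Mdr2-KO tumours rather than in all high score tumours. The difference was 0.69 for Mad2l1bp without Mdr2-KO 5 and 0.73 for Vegfa without Mdr2-KO 7. Of the 11 protein-coding genes of this stretch 8 were tested and all 8 lay above 0, a set chosen after its values were seen.

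By p, the negative differences were headed by Hhipl2, a relative of the hedgehog-interacting protein, at 2.84, 2.15, 2.22 and 2.36 in the high score tumours, against 3.31, 4.06 and 3.77 in the low score tumours (no value in Mdr2-KO 2), and Cdh19, a cadherin, at -1.08, -0.58, 0.12 and -1.45 in the high score tumours, against 1.16, 0.23, 0.90 and 1.66 in the low score tumours. Hhipl2 differed by -1.32 ± 0.23 (SE), and neither gene's groups overlapped. Cdh19's only spot with values in both groups differed by -0.92, against -1.73 for the mean over its 3 spots. Col4a5, a basement membrane collagen, lay at -3.73, -3.49, -3.71 and -2.97 in the high score tumours, against -1.23, -1.75, -0.85 and -3.21 in the low score tumours, where Mdr2-KO 2 lay within the range of the high score group. Cyp4a12, a fatty acid hydroxylase that is stronger in male than in female mouse liver, lay at 1.57, 1.95, 4.41 and 4.87 in the high score tumours, against 5.54, 5.04, 5.17 and 5.33 in the low score tumours, and Cyp2d9, also stronger in males, at 2.69, 3.45, 5.30 and 3.67 in the high score tumours, against 5.50, 5.37, 4.42 and 4.94 in the low score tumours. Of the genes that the rule for named genes gave, Cyp4a12 had the largest negative difference, -2.07, and Cyp2d9 differed by -1.28. With Eif2s3y as a covariate these differences were -1.93 and -1.14. Other P450 genes differed in the opposite direction, such as Cyp4a10 by 1.40, Cyp2b9 by 1.24 and Cyp3a41a by 1.12. Of the 33 genes in the P450 list, which holds Cyp2d9, 18 lay above 0 and 15 below. Over all genes with a symbol the lowest difference was -2.895, in a gene that the rule did not give. Enpp2, the secreted enzyme autotaxin, differed by -1.06, Ces2e, a carboxylesterase, by -1.57, Steap2, a metalloreductase, by -1.61, Praf2 by -1.09, Adamts15, a protease of the matrix, by -1.16, Plet1 by -1.08, Lipn, a lipase, by -1.13 and Nrip2 by -1.04. The difference was -0.61 for Enpp2 without Mdr2-KO 7 and -0.70 for Praf2 without the tumour labelled IkB-SR 8.

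Markers of other cells were set beside the score. The endothelial list had 24 of 26 genes above 0 and a median of 0.42, the only list outside the cell cycle with a median over 0.30. It held 1 gene whose groups did not overlap (background 1.88%). That gene, Egfl7, a factor secreted by endothelium, lay at 3.23, 2.75, 2.09 and 2.39 in the high score tumours, against 2.08, 1.57, 1.37 and 1.95 in the low score tumours. Icam2, an endothelial adhesion molecule that is not in the list, lay at 1.09, 1.07 and 0.58 in the high score tumours, against -0.59, -0.07 and 0.15 in the low score tumours (no value in IkB-SR 9 and IkB-SR 3), and Mmrn2, a matrix protein of vessels, differed by 0.98. The mean over the list was 2.40, 2.14, 0.71 and 1.62 in the high score and 1.23, 1.08, 1.41 and 1.87 in the low score tumours, so the groups overlapped. Its highest value, 3.06, was in the middle tumour Mdr2-KO 1, and the wild-type liver had 1.99. The direction did not hold within both dye batches: the list's median difference was -0.22 within batch 1 and 0.95 within batch 2. It was 0.05 within IkB-SR and 0.34 within Mdr2-KO tumours. The batch 2 value sets Mdr2-KO against IkB-SR labelled tumours, so score and genotype label cannot be told apart in it. The batch 1 value sets IkB-SR 9 and 4 against IkB-SR 3 and Mdr2-KO 2, so genotype was not balanced in it either. In tissue RNA, fewer cells of a type and less RNA per cell cannot be told apart.

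The macrophage and Kupffer cell list had 18 of 25 genes above 0 (median 0.10), and its mean ranged from 1.10 to 2.14 in high score and from 1.09 to 2.06 in low score tumours. Its median was -0.56 (3 of 25 above 0) within dye batch 1, 0.73 (22 of 25) within dye batch 2 and -0.07 without Mdr2-KO 7. The T and NK cell list had 7 of 13 above 0 (median 0.01), the B and plasma cell list 6 of 11 (0.03), the neutrophil list 4 of 5 (0.25), the cholangiocyte list 6 of 15 (-0.02) and the matrix and stellate cell list 23 of 34 (0.07). The neutrophil list's median was -0.45 within dye batch 1 and 0.68 within batch 2. In these lists 0 genes had all high score tumours above all low score tumours (background 1.88%). Gimap4, a GTPase of lymphocytes, Gbp2b, an interferon-induced GTPase, and Serpina3g, a serpin of immune cells, were among the genes of at least 1 log2 unit, with 1.06, 1.54 and 1.10, and each was highest of all in Mdr2-KO 1 of the middle. Whether dividing cells of these types contributed to the cell cycle values was not tested.

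The remaining lists had medians from -0.12 to 0.20. Of 20 glycolysis genes 9 lay above 0 (median -0.03), of 19 cholesterol synthesis genes 9 (-0.12), of 20 oncofetal and progenitor genes 12 (0.15), of 31 NF-kB targets 17 (0.01), of 23 interferon response genes 16 (0.05), of 7 MHC class II genes 4 (0.08), of 19 immediate early genes 14 (0.20), of 4 erythroid genes 2 (0.04) and of 13 control genes 7 (0.04). Some of these medians average opposite values of the dye batches, within which genotype was not balanced. Cholesterol synthesis genes were above 0 in 19 of 19 (median 0.54) within batch 1 and in 1 of 19 (-0.48) within batch 2, and their median was 0.31 (17 of 19) without IkB-SR 6. MHC class II genes had medians of -0.34 within batch 1 and 0.34 within batch 2. The oncofetal list had a median of 0.23 within IkB-SR and -0.24 within Mdr2-KO tumours. Each list had at most 1 gene whose groups did not overlap in either direction (background 1.88% above and 2.04% below). Sox4, a factor of progenitor cells, lay at -1.62, -1.62, -1.73 and -1.63 in the high score tumours, against -2.39, -2.53, -2.16 and -1.66 in the low score tumours. Psmb9, an interferon-induced proteasome subunit, differed by 0.50, and Rpl13a, a ribosomal protein among the control genes, by 0.25.

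**Figure D5:**
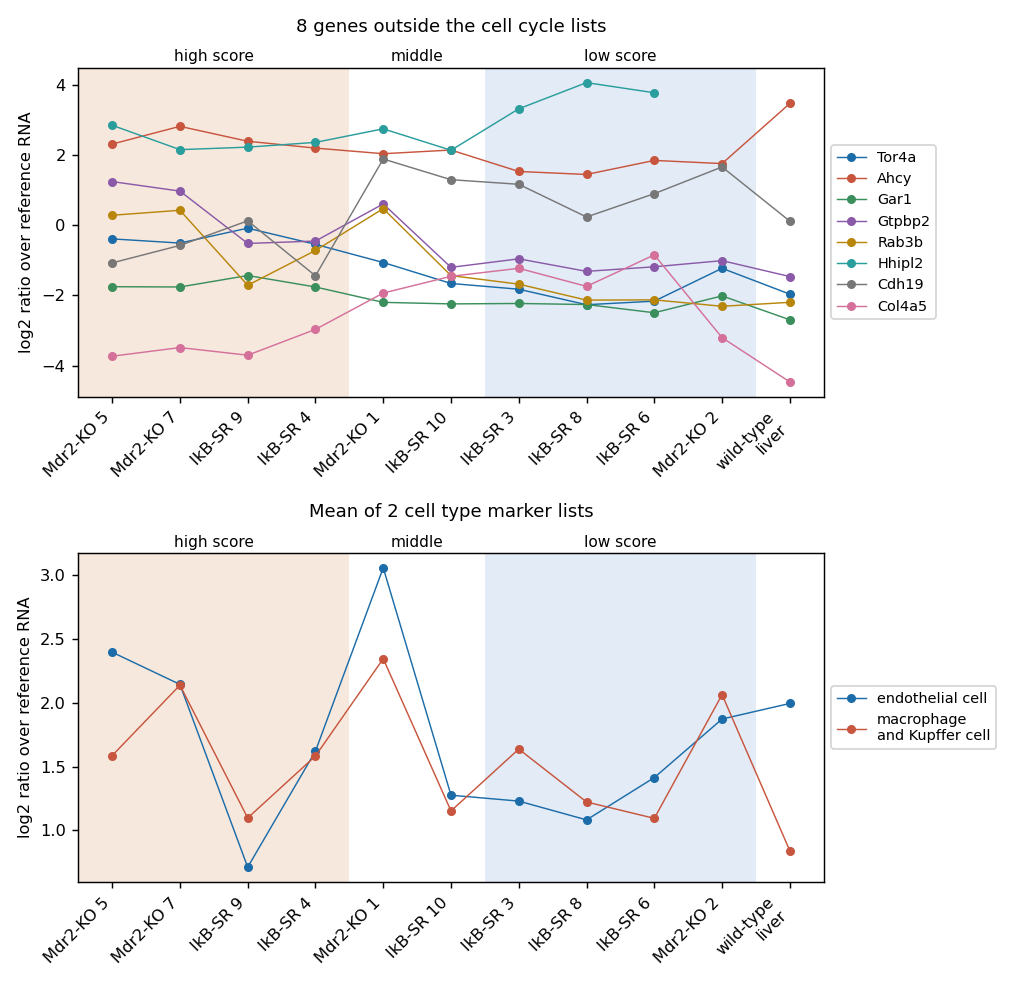
Log2 ratio over the reference RNA (y axis) in each sample, ordered by score, for 8 genes outside the cell cycle lists (upper panel) and as the mean over the endothelial and the macrophage and Kupffer cell lists (lower panel); lines only join the points of a gene or list, and gaps are missing values. Tor4a, Ahcy and Gar1 lie higher in all 4 high score tumours than in the 4 low score tumours, while both list means peak in the middle tumour Mdr2-KO 1.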

How the data were processed

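RNA of 10 tumours and 1 wild-type liver was hybridised on 22 two-colour arrays, 2 per sample with dyes swapped. The values are log2 ratios of sample over reference as deposited by the authors in their table of 37632 spots. The log base is not stated and was taken as 2, and the likely direction is sample over reference, since the mean ratio of 35 secreted hepatocyte proteins was 4.36 or more in every sample. No label states how background was corrected or arrays normalized. Between 19576 and 25000 spots per array had a value. The precision of a single spot is known only through the dye swap, since signal intensities were not used, and the number of tumours limits the rest. Of the spots 20879 carried 1 gene symbol, brought up to date through RefSeq (GRCm38.p6), and 16753 none.

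Arrays of a tumour were averaged, then spots of a symbol. Features entered the fit when at least 3 tumours of each group had a value on both arrays. High and low score tumours were compared with limma 3.58.1 (lmFit, eBayes, 6 residual degrees of freedom; R 4.3.3) and Benjamini-Hochberg adjustment over all features, with a threshold of 0.05; errors of differences are its standard errors. The procedure was tested on simulated data. Genotypes were compared by exact permutation of the score. Tables and plots used Python 3.11.15, numpy 2.4.6, pandas 2.3.3 and matplotlib 3.10.9. Dye batches were split at an SD of the dye difference of 0.5 (a limit chosen with the values in view).

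The tumour groups, the 30 lists of genes and the rule for naming genes were chosen with earlier results of these data known. The rule took the score genes, up to 15 genes per direction (here by smallest p among those with an unadjusted p under 0.05 and a difference of at least 1), the 3 genes with the smallest p of a list, and Mki67, Pcna, Ccnd1, Myc, Cdkn1a, Afp, Igf2, H19, Alb, Nfkbia, Eif2s3y and Abcb4. For some lists fewer than 3 of the genes this rule gave are described. Ccnb2, Plk1, Ccna2, Ube2c, Mcm5, Ccne1, Nusap1, Ckap2l, Trip13, Cdk1, Sgo1, Tpx2, Cenpa, Ahcy and the genes beside Gtpbp2 were named after their values were seen. Alternatives changed the normalization, the filter, the dye, the covariates, the group size and the score, and left out each tumour. Label entries that contradict the sample type (skin as the source of RNA, carcinoma for wild-type liver) were disregarded.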

Additional observations from a re-analysis of the deposited data

Results flagged for a closer look

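Within a score group of 4 tumours, 1 tumour lay far from the other 3 in 11 of 158 groups examined, and chance alone flags about 1 in 20. IkB-SR 9 stood out in the high score group by Setd4 (2.96), Gar1 (-1.44), Sox4 (-1.73) and Eif2s3y (2.46), with higher values than the others for all but Sox4. IkB-SR 4 stood out there by Sik1 (-0.23), low, and by the ribosome assembly factor Ppan (-0.36), high, and Mdr2-KO 5 by Smc4 (-2.36), high. In the low score group IkB-SR 6 stood out by Asf1b (-4.21) and Tk1 (-2.77), both low, IkB-SR 3 by Smc4 (-3.08), high, and Mdr2-KO 2 by Wdhd1 (-3.16), high. For Smc4, Asf1b, Wdhd1 and Gar1 the groups did not overlap with these tumours included.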

How the results depend on the processing

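The count of 0 called features held in every alternative that kept the 8 tumours, left out 1 of them (0 called each, with 645 to 1051 features at an unadjusted p under 0.05) or changed the group size, except in 4 settings. The score as a continuous measure over 10 tumours called 10, the comparison within Mdr2-KO tumours 1 and within dye batch 2 called 2. Groups scored on Cy3 arrays and compared on Cy5 arrays called 153, of which 143 were lower; there 3 of the high tumours belonged to dye batch 2 and all 4 low tumours to dye batch 1. Interaction terms with genotype and with dye batch called 0 (777 and 1093 at an unadjusted p under 0.05). A filter for values in all 10 tumours and a fit with genotype and dye batch together were chosen after seeing the data and also called 0. The spindle list's median difference was 0.36 after quantile normalization, 0.50 on Cy3 and 0.51 on Cy5 arrays. After quantile normalization the median was 0.24 for mitotic kinases and entry, 0.21 for G1 to S and 0.13 for replication genes. The direction was lost in other lists: S-phase chromatin had 7 of 13 genes above 0 (median 0.02) and nucleotide supply 6 of 13 (-0.005). DNA repair and checkpoint had 14 of 28 (0.0). CDK inhibitors and antiproliferative genes had 18 of 25 (0.12).

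The score difference between IkB-SR and Mdr2-KO tumours turned to 0.009 after quantile normalization and to 0.324 within dye batch 1; leaving out 1 tumour gave -0.369 to 0.018, above 0 only without Mdr2-KO 5. Of 1359 results of 85 named genes under alternatives, 1347 kept direction and side of the threshold and 12 changed sign, all on leaving out 1 tumour: Cdkn1a (-0.186 to 0.481), Igf2 (-0.703 to 2.33), H19 (-0.861 to 1.65), Alb (-0.019 to 0.578) and Nfkbia (-0.239 to 0.785). Comparisons within a genotype or a dye batch were not counted here, and there other genes reversed too. In dye batch 1 Myc lay at -2.41 and -2.79 in the high score tumours, against -2.62 and -2.21 in the low score tumours. Vegfa lay there at -0.98 and -0.50, against -0.80 and -0.15. The cause of the sign changes was not tested. With 4 tumours a group, differences within the spread between tumours could not be resolved.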

Other observations

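Several genes of mitosis that were in none of the lists also had groups that did not overlap; they were named after their values were seen. Knstrn, a kinetochore partner of astrin, lay at -2.05, -2.78, -2.98 and -3.31 in the high score tumours, against -3.44, -3.55, -3.57 and -4.20 in the low score tumours. Dsn1, a subunit of the outer kinetochore, and Ercc6l, a helicase of the bridges between parting chromosomes, had log2 differences of 0.67 and 0.64. Afap1l2, an adaptor of the kinase Src, and Anxa1, an annexin, differed by 0.91 and 0.93, Anxa1 without a value in IkB-SR 9. In the other direction lay Ethe1, a mitochondrial enzyme that detoxifies sulfide, with 1.95, 1.06, 1.36 and 1.49 in the high score tumours and 2.74, 2.24, 2.47 and 2.02 in the low score tumours. Nox4, an oxidase that makes hydrogen peroxide, and Etnk2, an ethanolamine kinase, differed by -0.85 and -0.71. None of these genes passed limma's threshold.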
